A study of Mus musculus with 6 samples.

Results

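Cathepsins are proteases of the lysosome, the acidic compartment in which cells break down proteins. They are made as inactive proenzymes, carried to the lysosome by mannose 6-phosphate receptors and activated by cleavage there. Most belong to the papain family of cysteine proteases, while cathepsin D is an aspartic protease and cathepsin A a serine carboxypeptidase. Cystatins hold the cysteine cathepsins in check outside the lysosome. In vessels and lung, cathepsins K, L and S are known for cutting elastin and collagen, and macrophages are a rich source of several of them.

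The 10 lysosomal cathepsin genes Ctsa, Ctsb, Ctsc, Ctsd, Ctsh, Ctsk, Ctsl, Ctso, Ctss and Ctsz were followed here, of 53735 genes in the deposited table. They were taken by symbol as a family, and the family was chosen by a measured value: Ctsc, the cathepsin C gene, had been seen to be higher in the knockout columns. No p-value is therefore given for the genotype differences of the members, and nothing is read from the calls that fits over all genes make on them. All 10 entered the fits, for which a gene needed a mean normalized count of 10 or more.

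The libraries hold poly(A) RNA of endothelial cells from mouse lung, picked out by their surface proteins CD31 and ICAM2 on beads and cultured, untreated and unpassaged, until confluent. Knockout 1 to 4 came from mice without Zmpste24, whose product cuts prelamin A to mature lamin A and whose loss gives a progeria-like disease, and wild type 1 and 2 from mice with the intact gene. No other allele or agent is named for either group, and strain, sex and age are not given in the sources used here. The labels speak of 2 cohorts of mice without assigning libraries to them, and do not say whether each library is a separate animal. P-values below thus reflect how far these libraries differ among themselves, some of which may be technical.

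Recovered reads came to 36844042 to 45613685 per knockout library and 40582588 and 32699024 in wild type 1 and 2. Zmpste24 itself had 5079, 3764, 3599 and 3720 normalized counts in knockout 1 to 4, against 5503 and 4148 in wild type 1 and 2 (−0.26 ± 0.20 on the log2 scale, SE, adjusted p = 1.00 by limma). Which part of the gene was removed is not stated, so the labels are not tested by this count, and "knockout" below stands for the library labelled so. Knockout 1 and wild type 1 stood apart from the other 4 libraries on the first principal component, which held 77.3% of the variance. These 2 libraries are called the first set, and knockout 2 to 4 with wild type 2 the second set. The design text gives the cultures as nearly pure endothelium, but markers of other cell types were present throughout. The summed level of 18 macrophage markers was 4463, 43451, 60014 and 35886 normalized counts in knockout 1 to 4, against 5557 and 41189 in wild type 1 and 2, and none of the 18 was at 0 in any library. Endothelial markers (9 genes, none at 0) summed to 35238 to 97542 in knockout and to 56499 and 166480 in wild type libraries, and fibroblast markers (8 genes) to 409050 to 485282 and to 426834 and 485946.

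On GRCm38 with GENCODE M21 the family is spread over 6 chromosomes and each member is a protein-coding gene. Ctsa lies at chr2:164832873-164841032 (plus strand), Ctsz at chr2:174427493-174439039 (minus), Ctso at chr3:81932601-81956725 (plus), Ctsk at chr3:95499256-95509362 (plus) and Ctss at chr3:95526786-95556403 (plus). Ctsc lies at chr7:88278085-88310888 (plus), Ctsd at chr7:142375911-142388038 (minus), Ctsh at chr9:90054152-90076089 (plus), Ctsl at chr13:64359337-64370890 (minus) and Ctsb at chr14:63122462-63145923 (plus).

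Upstream sequences are shown for the members that the comparison of library sets and the study's genotype contrast turn on, together with those that hold a full binding motif of the lysosomal regulator TFEB. RefSeq start sites on GRCm38.p6 were matched by symbol for 8 of the 10 members, all but Ctsb and Ctsh, which gave 9 windows of 250 bases upstream of these sites. By the GENCODE M21 loci, the Ctsl window and the second Ctsa window lie inside the gene, as does most of the Ctsd window. Each window shown is printed 5′ to 3′ on the strand of its gene, with matches to any of the searched motifs in capitals. Ctsc lies on chromosome 7, plus strand (chr7:88277835-88278084), and Ctss, the cathepsin S gene, on chromosome 3, plus strand (chr3:95526536-95526785). Ctsd, the cathepsin D gene, lies on chromosome 7, minus strand (chr7:142387828-142388077), and the window of the second start site of Ctsa, the cathepsin A gene, on chromosome 2, plus strand (chr2:164833523-164833772).
Ctsc: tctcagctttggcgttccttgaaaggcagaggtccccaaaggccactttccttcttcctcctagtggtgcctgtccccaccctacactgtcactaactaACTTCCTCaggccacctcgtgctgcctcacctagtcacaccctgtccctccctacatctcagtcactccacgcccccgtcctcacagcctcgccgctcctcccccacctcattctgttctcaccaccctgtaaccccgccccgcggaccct
Ctss: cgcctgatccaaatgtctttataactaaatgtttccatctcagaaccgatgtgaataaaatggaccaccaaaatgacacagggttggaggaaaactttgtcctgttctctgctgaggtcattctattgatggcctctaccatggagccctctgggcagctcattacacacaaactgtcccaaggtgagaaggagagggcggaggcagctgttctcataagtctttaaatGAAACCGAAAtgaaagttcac
Ctsd: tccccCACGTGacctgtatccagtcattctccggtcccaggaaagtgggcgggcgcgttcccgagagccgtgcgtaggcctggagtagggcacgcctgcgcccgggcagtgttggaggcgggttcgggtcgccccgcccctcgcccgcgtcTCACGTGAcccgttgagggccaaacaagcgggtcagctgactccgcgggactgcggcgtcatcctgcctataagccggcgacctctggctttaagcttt
Ctsa: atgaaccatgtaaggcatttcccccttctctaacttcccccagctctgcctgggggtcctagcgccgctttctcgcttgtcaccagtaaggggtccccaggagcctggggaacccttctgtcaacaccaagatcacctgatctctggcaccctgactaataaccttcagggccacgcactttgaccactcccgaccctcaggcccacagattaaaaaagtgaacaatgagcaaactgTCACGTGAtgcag

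Capitals mark matches, on either strand, to 5 motifs. CACGTG, the E-box core, is in 6.04% of 32536 distinct upstream windows of this length, and TCACGTGA, the longer form that TFEB and its relatives bind and that contains the core, in 0.793%. The longer form was found in the Ctsd window and in the second Ctsa window, and the core alone at another place in the Ctsd window and once in the Ctsl window. GAGGAAGT, a site type of the myeloid factor PU.1, is in 2.45% of windows and was found in that of Ctsc. An interferon response motif, a pair of GAAA with 2 free bases between, is in 2.98% and was found in that of Ctss, and TGANTCA, the AP-1 motif, is in 6.73% and was found in 0 of the 9 windows of members. A match is a description of the letters alone. The windows of Ctsk, Ctso and Ctsz and the first of Ctsa held no match.

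In these cultures the cathepsin message was dominated by a few members. Summed over the 10 genes, the level was 194396, 205043, 200172 and 168913 normalized counts in knockout 1 to 4, against 203705 and 167005 in wild type 1 and 2, which is 0.454% to 0.512% of all counts in knockout and 0.479% and 0.443% in wild type libraries. Ctsb, Ctsd and Ctsl together made up 74.1% to 80.0% of this sum in knockout and 82.2% and 76.1% in wild type libraries. The sums of both genotypes overlapped.

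Levels of different genes were compared per kilobase of the principal transcript in GENCODE M21. Ctsl, which encodes the endopeptidase cathepsin L, was first in all 6 libraries with a mean of 28692 ± 2499 normalized counts per kilobase (SD, n = 6). Ctsd and Ctsb, the gene of cathepsin B, followed at 13190 ± 4039 and 13012 ± 1849. Their order turned with the library set, with Ctsd higher in each library of the first and Ctsb in each of the second. Ctsz, the gene of the carboxypeptidase cathepsin Z, had rank 4 in all 6 libraries at 7337 ± 769. Ctsc and Ctsa came next at 4573 ± 2169 and 4106 ± 564, with Ctsa higher in each library of the first set and Ctsc in each of the second. Ctsh, the gene of the aminopeptidase cathepsin H, Ctss and Ctsk, the gene of cathepsin K, lay at 1215 ± 785, 1046 ± 858 and 1043 ± 371. From high to low, the order was Ctsh, Ctsk, Ctss in each library of the first set and Ctss, Ctsk, Ctsh in each of the second. Ctso, whose product cathepsin O is little studied, was lowest on average at 475 ± 176, although Ctss was lower in knockout 1 and wild type 1. With the merged exons of each gene as the length, the order was Ctsd, Ctsb, Ctsl. The merged exons of Ctsl span 6489 bases and its principal transcript 1971.

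**Figure D1:**
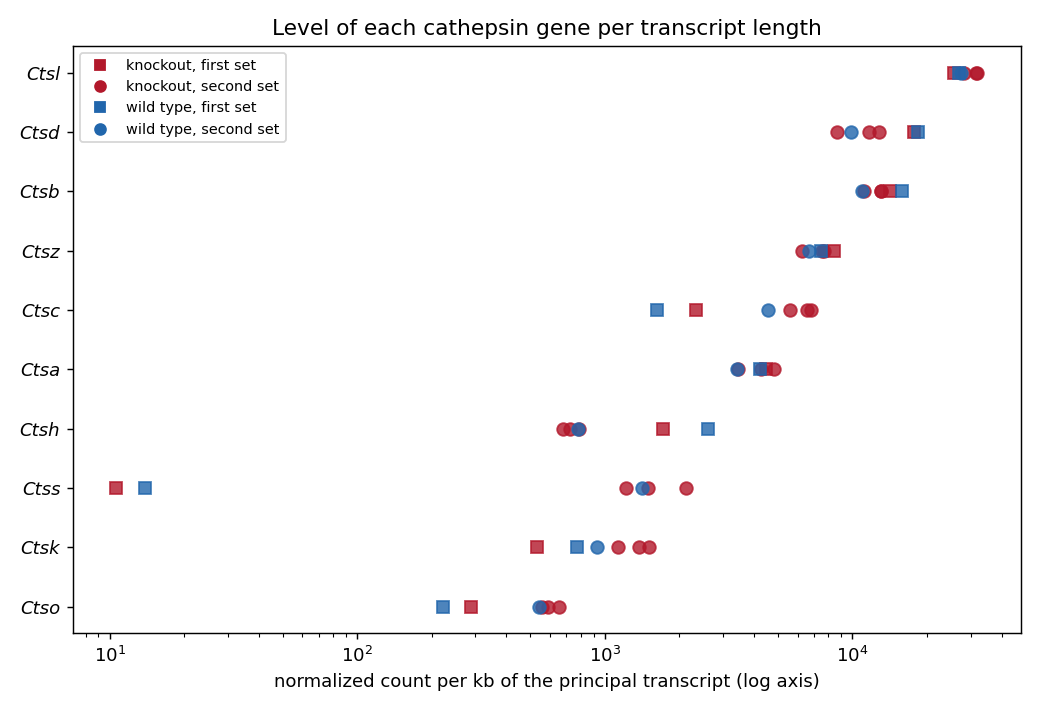
Level of each cathepsin gene in normalized counts per kilobase of the principal transcript (log axis), 1 point per library, coloured by genotype and shaped by library set. Ctsl lies highest in all 6 libraries, between 25792 and 31963, and the 2 first-set points of Ctss, at 10.6 in knockout and 13.9 in wild type, lie far to the left of its other 4.

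Ctsc encodes dipeptidyl peptidase I, which trims 2 residues at a time from the start of proteins and is known for activating the serine proteases of immune cell granules. It had 5815, 16931, 16261 and 13995 normalized counts in knockout 1 to 4, against 4046 and 11357 in wild type 1 and 2. Knockout 2 to 4 were above both wild type libraries and knockout 1 was below wild type 2, so the genotypes overlapped. Against the wild type library of its own set, each knockout library was higher, 1.44-fold in knockout 1 and 1.49-fold, 1.43-fold and 1.23-fold in knockout 2 to 4, of which the last 3 share wild type 2. With library set in the model, the log2 difference of Ctsc was 0.49 ± 0.10 (SE) on the log2(normalized count + 1) scale. It lay between 0.46 and 0.54 when knockout 2, 3 or 4 was left out of that fit or the second set was taken alone. Each of these fits kept wild type 2 as the only wild type library of the second set. They cannot show how far the difference rests on that library, and the range is no support for Ctsc, which chose the family. With genotype as the sole term the difference was 0.85 ± 0.59 (SE), and it was 0.11 without wild type 1, 1.60 without wild type 2 and 1.21 without knockout 1.

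Markers of other cell types also differed within the sets, and their part in the values of Ctsc was not tested. Within the sets, the summed macrophage markers of knockout 1 to 4 were 0.803, 1.05, 1.46 and 0.871 times those of the wild type library, and 8, 14, 16 and 8 of the 18 markers were higher in the knockout library. Without Cd14, the macrophage sum was 0.822, 1.13, 1.57 and 0.942 times the wild type value in knockout 1 to 4. Cd14 made up 63.2% to 64.1% of the full macrophage sum in the first set. Summed endothelial markers were 0.586, 1.02, 0.874 and 0.624 times the wild type value in knockout 1 to 4, and summed fibroblast markers 0.958, 0.912, 0.999 and 0.958 times. Both of these lists and the macrophage list had no marker at 0. The sum of 5 neutrophil markers was above the wild type value in all 4, as Ctsc was, at 1.16, 1.90, 2.53 and 1.02 times. Only 1, 2, 2 and 1 of the 5 markers were higher in knockout 1 to 4, however. Most of the sum was S100a8, with 202, 79.4, 73.7 and 48.4 normalized counts in knockout 1 to 4, against 168 and 35.7 in wild type 1 and 2. The neutrophil sum was low, 56.5 to 210 normalized counts in knockout and 55.3 and 180 in wild type libraries, with up to 3 of the 5 markers at 0 in a library. The sum of 5 lymphatic endothelial markers was below the wild type value in all 4, at 0.713, 0.562, 0.503 and 0.475 times. Mesothelial markers were at 2.31, 0.725, 0.513 and 0.975 times, smooth muscle markers at 0.944, 1.68, 1.28 and 0.906 times, and epithelial markers at 1.27, 1.45, 1.79 and 0.779 times. In bulk RNA, a change in the number of cells of a type and a change of RNA per cell cannot be told apart. Between the sets, Ctsc averaged 14636 normalized counts in the second and 4930 in the first, a 2.98-fold difference that was larger than any of its differences between genotypes within a set. The summed markers of other cell types also differed between the sets, and their part in this difference was not tested.

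The 5 genes with the profile nearest to Ctsc over the 6 libraries were found by the root mean square distance of centred log2 values among 9067 genes averaging 500 normalized counts or more, where the median distance was 0.80. They were Zim1 at 0.12, Cxcl1, a neutrophil chemokine gene, at 0.12, Tgfbr3, the betaglycan gene, at 0.12, Id2, an inhibitor of helix-loop-helix factors, at 0.12, and Osmr, the oncostatin M receptor gene, at 0.14. Tgfbr3, for example, had 4675, 14375, 13634 and 11094 normalized counts in knockout 1 to 4, against 3418 and 11611 in wild type 1 and 2. All 5 were lower in both libraries of the first set than in the second, as Ctsc was. They were picked for likeness to Ctsc, so this is no separate result. Knockout 4 was below wild type 2 for Tgfbr3 and Osmr and above it for Zim1, Cxcl1 and Id2.

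**Figure D2:**
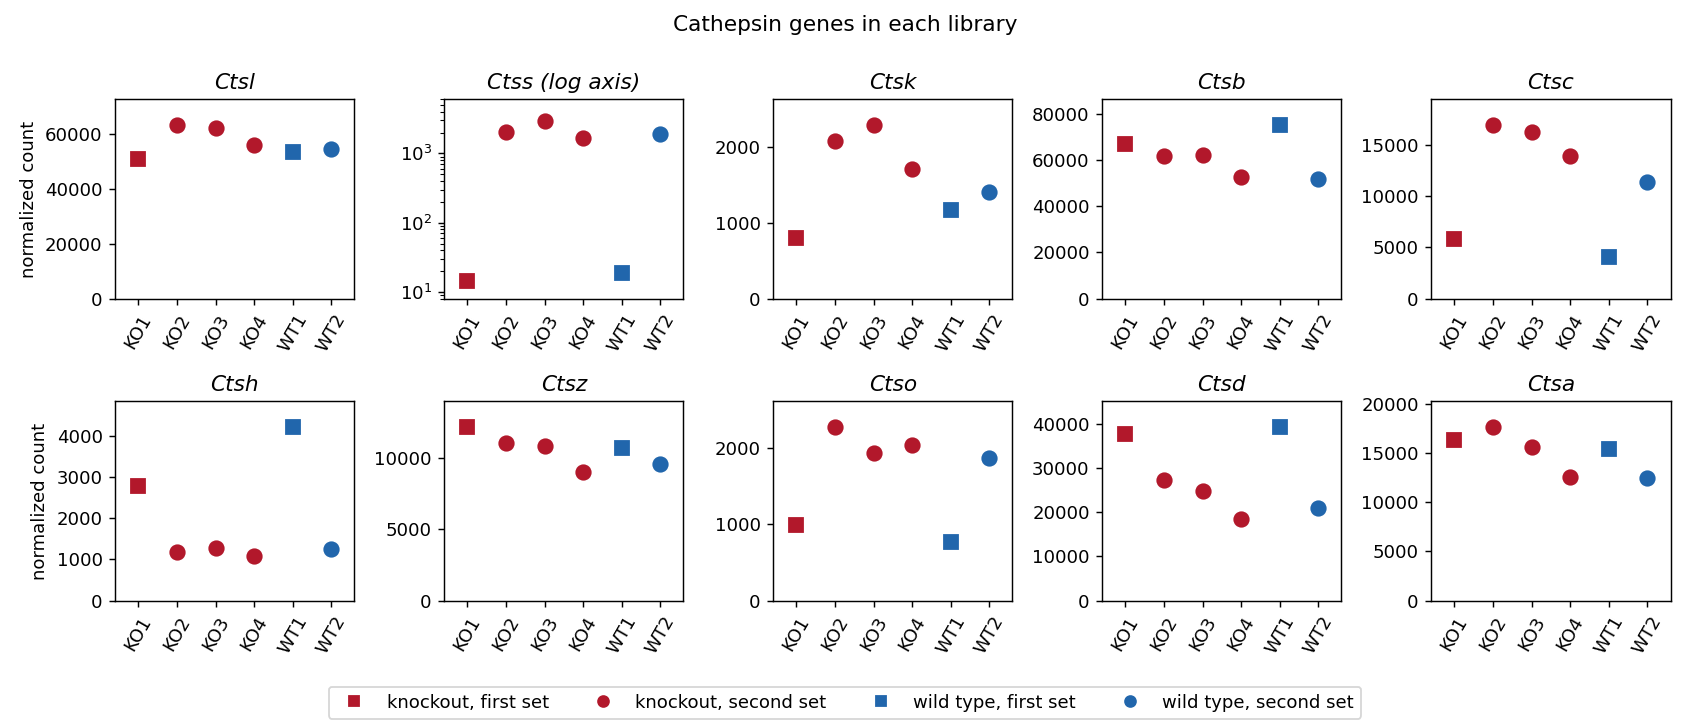
Normalized counts of the 10 cathepsin genes in knockout 1 to 4 and wild type 1 and 2, coloured by genotype, with squares for the first library set and circles for the second (linear axes from 0, a log axis for Ctss). Ctsc, Ctsk, Ctsl, Ctso and Ctss lie lower and Ctsb, Ctsd and Ctsh higher in both libraries of the first set than in the second.

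Ctss was the member that varied most. Cathepsin S stays active at neutral pH and is known for cutting the invariant chain in antigen-presenting cells. It had 14.4, 2015, 2895 and 1653 normalized counts in knockout 1 to 4, against 18.8 and 1907 in wild type 1 and 2. Both libraries of the first set were thus near the floor and all 4 of the second were high, whatever the genotype. The mean log2 value was 119-fold apart, 2117 normalized counts on average in the second set and 16.6 in the first, and 11 of the 15229 tested genes, Ctss included, were higher in the second set by as much. In the first set the values rest on 14 reads in knockout 1 (exact 95% Poisson interval 7.65 to 23.5) and 18 in wild type 1 (10.7 to 28.4), intervals that overlap and cover counting error only.

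Markers of several cell types differed between the sets along with Ctss, and their part in its values was not tested. Of the 18 macrophage markers, 17 were higher in every library of the second set than in both of the first. Over all tested genes, 63.4% did not overlap between the sets, in either direction. The sum of all 18 markers was 9.01 times higher on average in the second set. The remaining marker, Cd14, made up 63.2% to 64.1% of the sum in the first set, and without it the sum was 23.3 times higher in the second set. Epithelial markers summed to 10.5 times the first-set value, with 4 of 5 higher in every library of the second set, but to at most 428 normalized counts in any library. Endothelial, smooth muscle and mesothelial sums in the second set were 0.377, 0.349 and 0.306 times those of the first. Neutrophil, lymphatic endothelial and fibroblast sums were 0.458, 0.514 and 1.12 times those of the first. Lyz2, the macrophage lysozyme gene, had 718, 20138, 27455 and 18131 normalized counts in knockout 1 to 4, against 856 and 18509 in wild type 1 and 2. Within the sets, Ctss in knockout 1 to 4 was 0.763, 1.06, 1.52 and 0.867 times the wild type value, beside 0.803, 1.05, 1.46 and 0.871 times for the macrophage sum, or 0.822, 1.13, 1.57 and 0.942 times without Cd14. With library set in the model Ctss differed by −0.05 ± 0.27 (log2, SE), and in the fit with genotype alone by 1.67 ± 2.75, which was −1.62 without wild type 1 and 4.97 without wild type 2.

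**Figure D3:**
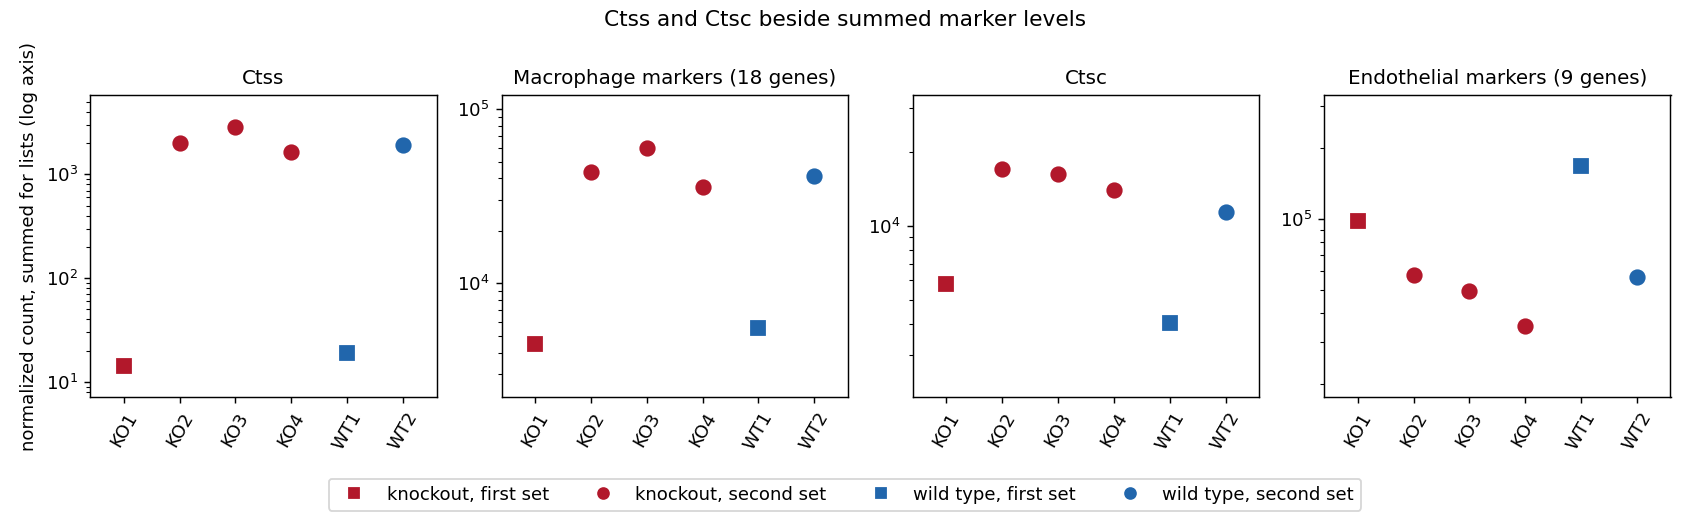
Normalized counts of Ctss and Ctsc and the summed normalized counts of macrophage and endothelial markers in each library (log axes), coloured by genotype and shaped by library set. Ctss, the macrophage sum and, by a smaller fold, Ctsc are lower in knockout 1 and wild type 1 than in the other 4. Ctsc, the gene that led to this family, is also higher in each knockout library than in the wild type library of its set.

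Ctsk, the collagen-degrading cathepsin of osteoclasts and fibroblasts, is the neighbour of Ctss on chromosome 3, 17423 bases away with no annotated gene between. It had 804, 2082, 2286 and 1714 normalized counts in knockout 1 to 4, against 1166 and 1410 in wild type 1 and 2. Knockout 1 was the lowest and knockout 2 to 4 were the highest, with both wild type libraries between them. Within the sets it was thus lower in knockout 1, at 0.690 times the wild type value, and higher in knockout 2 to 4, at 1.48, 1.62 and 1.22 times. Its log2 difference was 0.09 ± 0.26 with library set in the model and 0.32 ± 0.44 for genotype alone (SE). It differed between the sets by 1.90-fold, against 119-fold for Ctss.

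Ctsl, the other endopeptidase gene of this kind, was the steadiest member, with its highest library 1.24 times its lowest. It had 50837, 62999, 62093 and 55824 normalized counts in knockout 1 to 4, against 53299 and 54265 in wild type 1 and 2. The wild type values lay inside the range of the knockout values. Each library of the first set was lower than every library of the second, by 1.13-fold on average. With library set in the model it differed by 0.06 ± 0.11 (log2, SE).

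Ctsb encodes a protease that cuts both inside proteins and from their ends. It had 67089, 61654, 62108 and 52572 normalized counts in knockout 1 to 4, against 74967 and 51907 in wild type 1 and 2, and differed by 0.04 ± 0.13 (log2, SE, library set in the model, and −0.04 ± 0.23 for genotype alone). Wild type held both the highest and the lowest value. Each library of the first set was higher than every library of the second, by 1.25-fold on average. Fdft1, an opposite-strand gene, shares 774 exon bases with Ctsb and averaged 1141 normalized counts, against 61716 for Ctsb. The sources used here do not say whether counting used the strand. Ctsd shares 808 exon bases with Gm49369 on its own strand, and Ctsl shares 1742 with the antisense gene Gm47123 and 395 with Gm49230, which were not analysed here, so reads of both members are uncertain to that extent.

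The aminopeptidase gene Ctsh ran against Ctsc. It had 2790, 1168, 1276 and 1092 normalized counts in knockout 1 to 4, against 4201 and 1259 in wild type 1 and 2. Knockout 1 was well above the other 3 knockout libraries but below wild type 1. Within the sets it was 0.664 times the wild type value in knockout 1 and 0.928, 1.01 and 0.867 times in knockout 2 to 4, or −0.30 ± 0.14 (log2, SE, library set in the model). With the second set alone it was −0.10, and with genotype as the sole term −0.66 ± 0.59, which became 0.21 without wild type 1 and −1.52 without wild type 2. It was 2.86-fold lower in the second set than in the first.

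Ctsz had 12166, 11071, 10835 and 9053 normalized counts in knockout 1 to 4, against 10713 and 9596 in wild type 1 and 2, with overlapping groups. It differed by 0.13 ± 0.11 (log2, SE, library set in the model) and was above the wild type of the set in knockout 1, 2 and 3. Ctso had 995, 2269, 1930 and 2044 normalized counts in knockout 1 to 4, against 771 and 1872 in wild type 1 and 2. It was 2.31-fold higher in the second set, and within the sets knockout 1 to 4 were 1.29, 1.21, 1.03 and 1.09 times the wild type value (0.24 ± 0.10, log2, SE, library set in the model, and 0.52 ± 0.47 for genotype alone).

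Of the members outside the papain family, Ctsd encodes the main aspartic protease of the lysosome. It had 37631, 27283, 24865 and 18403 normalized counts in knockout 1 to 4, against 39163 and 20987 in wild type 1 and 2. Both libraries of the first set were higher than all 4 of the second, by 1.70-fold on average, and the genotypes overlapped (0.06 ± 0.18, log2, SE, library set in the model, and −0.13 ± 0.36 for genotype alone). Ctsa, whose product also protects beta-galactosidase and neuraminidase from breakdown, had 16255, 17570, 15624 and 12563 normalized counts in knockout 1 to 4, against 15361 and 12444 in wild type 1 and 2. It was 1.06, 1.41, 1.26 and 1.01 times the wild type value of its set in knockout 1 to 4 (0.20 ± 0.15, log2, SE, library set in the model). Ctsa shares exon bases with the opposite-strand genes Pltp and Neurl2, 495 and 324 of them, which averaged 685 and 149 normalized counts.

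**Figure D4:**
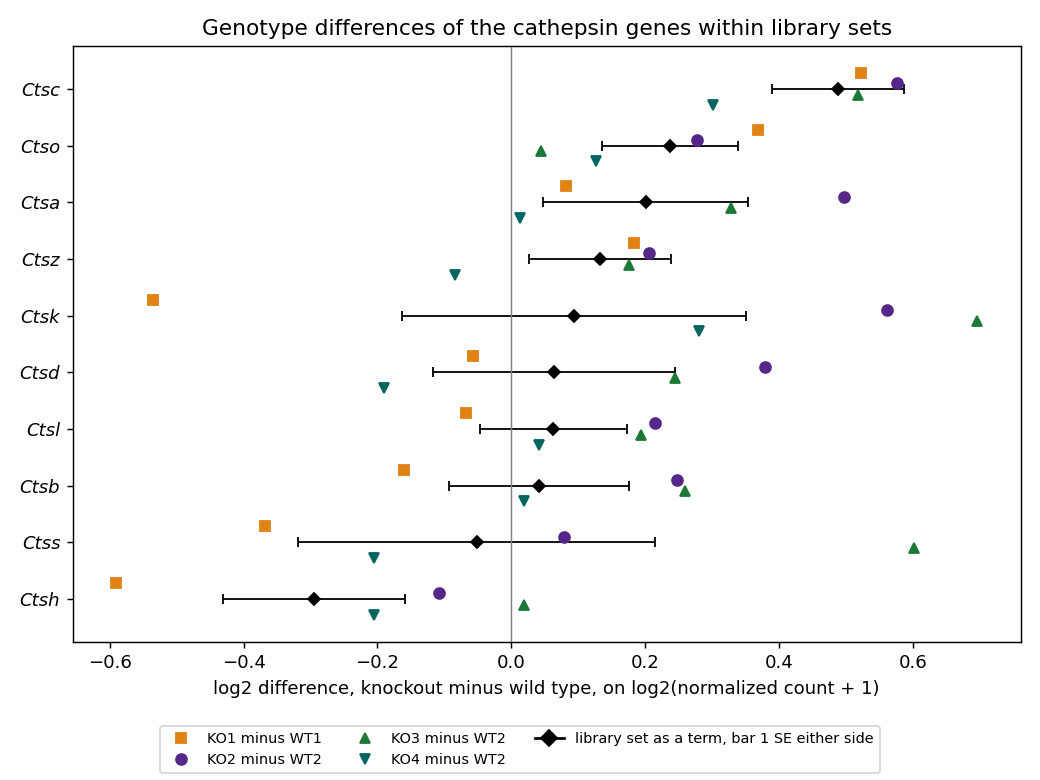
Log2 differences between knockout and wild type for each cathepsin gene on the log2(normalized count + 1) scale: knockout 1 minus wild type 1, knockout 2 to 4 minus wild type 2, and the estimate with library set in the model with 1 SE either side. Ctsc has the highest estimate, 0.49, and Ctsh the lowest, −0.30. Ctsc is the gene that led to this family, so its place here is no result. All 4 differences are above 0 for Ctsc, Ctsa and Ctso.

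Counted over the family, the members did not move as one. No member had non-overlapping genotype groups, where 4.68% of all tested genes did. Ctsa, Ctsc and Ctso, 3 of the 10, were higher in all 4 knockout libraries than in the wild type of their set, as were 10.1% of tested genes, and 0 were lower in all 4. Ctsc chose the family, so its place in this count is no result, and 2 of the other 9 members were higher in all 4. In knockout 1, 2, 3 and 4 the number of members above the wild type of the set was 4, 9, 10 and 6. Ctsc is in each of these counts, and those of knockout 2 to 4 share wild type 2. No share over all genes was taken for them or for the members lower in all 4, so nothing is read from these counts. Between the library sets 8 of the 10 members did not overlap, 5 higher and 3 lower in the second set, where 63.4% of tested genes did not overlap. Past the adjusted threshold of 0.05, 0 members were called by limma or edgeR with genotype alone, where each called 0.00657% of tested genes, or by DESeq2, where 0.046% were. With library set in the model, 0 were called by limma (0.00657% of genes) or edgeR (0.0131%), while DESeq2 (0.328%) called 1, Ctsc, the gene whose difference led to this family, so nothing is read from that call.

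The remaining cathepsin genes of the mouse were nearly silent in these cultures. Of 13 such genes only Ctsf, the cathepsin F gene, entered the fits, with 1524, 1956, 1684 and 1094 normalized counts in knockout 1 to 4, against 1333 and 1213 in wild type 1 and 2 (0.27 ± 0.24, log2, SE, limma adjusted p = 1.00). The knockout values lay on both sides of the wild type ones. The second most abundant, Cts7, of a rodent placental cluster, averaged 3.44 normalized counts.

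Genes that act with the cathepsins were examined in 8 lists, which hold 121 genes of the table, 95 of them tested. By limma 0 of the 95 were called for genotype alone (lowest adjusted p = 1.00, 0 at an unadjusted p under 0.05) and 0 once the library set was a term (lowest adjusted p = 0.999, 2 at an unadjusted p under 0.05). EdgeR and DESeq2 also called 0 with either model. Over all tested genes the median log2 difference was 0.00074 for genotype alone and −0.0027 once the library set was a term, when 49.3% of genes were above 0.

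Among the inhibitors, 5 of 10 genes were tested, with 2 above 0 and a median log2 of −0.14 with library set in the model. Ctla2a, which encodes a mouse protein that resembles a cathepsin propeptide and inhibits cathepsin L, was the most abundant, with 25330, 25409, 26284 and 26244 normalized counts in knockout 1 to 4, against 30599 and 27003 in wild type 1 and 2. All 4 knockout values were below both wild type values. Genotype groups did not overlap, in either direction, for 4.68% of tested genes. Ctla2a differed by −0.16 ± 0.13 on the log2 scale (SE, adjusted p = 1.00 by limma), and by −0.14 ± 0.08 with library set in the model. Cst3, the cystatin C gene, had 11110, 17857, 12629 and 7654 normalized counts in knockout 1 to 4, against 10419 and 8491 in wild type 1 and 2. Its knockout values spanned the wild type ones (0.32 ± 0.33, log2, SE, limma adjusted p = 1.00).

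Of the 15 genes for processing and sorting of lysosomal enzymes, 12 lay above 0 once the library set was a term, with a median of 0.04. Lgmn, the gene of legumain, which cleaves several cathepsins into their chains, had 8799, 21611, 18786 and 13209 normalized counts in knockout 1 to 4, against 11235 and 14437 in wild type 1 and 2. Knockout 1 was the lowest library and knockout 2 the highest (0.21 ± 0.38 for genotype alone, log2, SE, limma adjusted p = 1.00, and 0.03 ± 0.25 with library set in the model, adjusted p = 0.999). Scarb2, the gene of a lysosomal membrane receptor for glucocerebrosidase, differed by 0.27 ± 0.19 for genotype alone (limma adjusted p = 1.00) and by 0.17 ± 0.09 with library set in the model (adjusted p = 0.999). The 5 regulator genes of the TFEB family and its antagonist had a median of 0.09 with library set in the model. The most abundant of them, Tfe3, which encodes a close relative of TFEB, had 3289, 3248, 3240 and 3266 normalized counts in knockout 1 to 4, against 3363 and 3186 in wild type 1 and 2. Zkscan3, the gene of a repressor of lysosomal genes, differed by 0.18 ± 0.19 for genotype alone (log2, SE, limma adjusted p = 1.00) and by 0.08 ± 0.08 with library set in the model (adjusted p = 0.999).

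The 35 other lysosomal hydrolase genes and the 26 genes of the lysosomal membrane and its acid pump had medians of 0.07 and 0.07 with library set in the model, with 27 and 24 of them above 0. With genotype alone the medians were 0.0077 and −0.03, the second with the opposite sign. In all 4 within-set differences, 5 of the 35 and 7 of the 26 were higher, beside 10.1% of all tested genes. Lower in all 4 were 1 and 0, for which no share over all genes was taken. The differences of knockout 2 to 4 share wild type 2. Psap, the prosaposin gene, had 60058, 75315, 73272 and 56265 normalized counts in knockout 1 to 4, against 68037 and 57433 in wild type 1 and 2. Its groups overlapped, differing by 0.07 ± 0.21 (log2, SE), and Gaa, the acid alpha-glucosidase gene, differed by 0.11 ± 0.17. Lamp1, a major membrane protein gene of the lysosome, differed by −0.06 ± 0.26 (0.07 ± 0.11 once the library set was a term), and Cd63, a tetraspanin gene, by 0.06 ± 0.17 (log2, SE; limma adjusted p = 1.00 for all 4 with genotype alone).

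Partners of single members were scarce. Of 10 granule serine proteases that cathepsin C can activate or that lie in the same granules, 3 were tested, and the whole list summed to 20.2 to 145 normalized counts in knockout and to 47.2 and 55.5 in wild type libraries. Prtn3, the proteinase 3 gene, averaged 27.7, and Mcpt4, a mast cell protease gene, 17.2. The 8 class II presentation genes, where cathepsin S acts, summed to 549 to 850 normalized counts in knockout and to 625 and 749 in wild type libraries. H2-DMb1 and H2-Ab1, the most abundant of them, differed by −0.24 ± 0.37 and −0.07 ± 0.40 for genotype alone (log2, SE, limma adjusted p = 1.00 for both) and by −0.13 ± 0.33 and −0.28 ± 0.22 with library set in the model (adjusted p = 0.999 for both).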

How the data were processed

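The authors deposited a signal per gene and library, a read count divided by a size factor of the library. The submitters' processing notes list Trimmomatic 0.36, STAR 2.6.0c, featureCounts (Subread 1.6.1) and GRCm38.p6. The design text instead has Trimmomatic 0.32, STAR 2.4.2a, HTSeq with GENCODE M17 and DESeq2 1.10.1, and neither source says which account holds for the table.

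All values were whole multiples of the library's smallest value above 0, within a tolerance of 1e-06 of a read, so whole reads were recovered for 100% of values. A mean of 10 normalized counts has a counting error of about 31.6%. No 2 libraries agreed within sampling noise (chi-square per gene of at least 15.7). The fit across all genes was limma 3.58.1 in R 4.3.3 of log2(normalized count + 1) on genotype alone, for 15229 genes with a mean of at least 10, with Benjamini-Hochberg adjustment. This scale understates differences of low genes. It was tested on simulated data. Alternatives were other pseudocounts, filters and scaling, edgeR 4.0.16 and DESeq2 1.42.0 run on the recovered whole reads, a block for the number in the title, the library set as a term and each library left out. The library sets were read from the first principal component.

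Members, lists and library sets were chosen with earlier results of these data known. Genes named beside the members are the called or the 2 most abundant of each list, Zmpste24 and the 5 nearest to Ctsc. Pltp, Neurl2 and Fdft1 were added for their overlap, and Lyz2 as a macrophage marker. Loci, overlaps and lengths are from GENCODE M21 on GRCm38. Of the listed genes, 2 were not analysed here.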

Additional observations from a re-analysis of the deposited data

Results flagged for a closer look

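Among 49 sets of 4 knockout values (named genes and summed lists), 6 had 1 library whose gap to the nearest other exceeded 0.829 of the range, Dixon's critical value for 4, and chance alone flags about 1 in 20. In all 6 the library was knockout 1, the single knockout library of the first set. It had 2790 normalized counts of Ctsh, against at most 1276 in knockout 2 to 4, and 5079 of Zmpste24, against at most 3764. It had 5.14 normalized counts of Cts7, against at most 0.857, and 63.7 of Mcpt4, against 0 in the other 3. Summed mesothelial markers were 61241 in it, against at most 16269, and summed lymphatic endothelial markers 43721, against at most 23906.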

How the results depend on the processing

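Over all genes, 1 gene was higher and 0 were lower in knockout by limma with genotype alone. The number higher was 5 by DESeq2, 11 by DESeq2 with library set in the model, and 0 in the second set alone. The number lower was 1 with a pseudocount of 5, 2 by DESeq2, and 1 by edgeR and 39 by DESeq2 with library set in the model. Leaving out each library in turn gave 0 to 1 higher and 0 to 1 lower. Leaving out knockout 2, 3 or 4 from the model with library set, an alternative chosen after seeing the data like the merged exon length and the sums and counts without Cd14 or Ctsc, gave 0 to 1 higher. Calls in the 8 lists were 0 in each setting run. The numbers in the titles are shared by 2 pairs only, whose deviations correlated at 0.84 and 0.56, and each pair lies within 1 library set. These correlations cannot tell a pairing by number from the split into library sets. The numbers were not taken to pair samples. With the replicate block 0 genes were higher and Ctsc differed by 0.55.

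Uncalled genes changed sign in these settings, and the cause was not tested. Here the set model is the fit that has genotype and library set as terms. Lgmn ranged from 0.027 to 0.46 with 1 library left out, from −0.079 (without knockout 2) and −0.021 (without knockout 3) to 0.12 with 1 left out of the set model. Scarb2 ranged from −0.0021 to 0.54 with 1 library left out. Tfe3 ranged from −0.044 to 0.034 with 1 library left out, 0.0012, 0.0036 and 0.0045 with 1 left out of the set model, and was 0.0032 (TMM scaling), 0.0029 (edgeR), 0.0049 (set model), 0.012 (set model, edgeR), 0.0052 (set model, DESeq2) and 0.029 (second set). Zkscan3 ranged from −0.0066 to 0.37 with 1 library left out. Psap ranged from −0.050 to 0.19 with 1 library left out. Lamp1 ranged from −0.41 to 0.29 with 1 library left out, 0.030, 0.068 and 0.089 with 1 left out of the set model, and was 0.10 (replicate block), 0.071 (set model), 0.077 (set model, edgeR), 0.071 (set model, DESeq2) and 0.18 (second set). Cd63 ranged from −0.054 to 0.18 with 1 library left out. Prtn3 ranged from −0.99 to 2.21 with 1 library left out, −0.51, −0.36 and 0.13 with 1 left out of the set model, and was −0.24 (set model), −0.035 (set model, DESeq2) and −0.10 (second set). Mcpt4 ranged from −3.85 to 1.504 with 1 library left out, 0.29 in each fit with 1 left out of the set model, and was 0.33 (replicate block), 0.27 (set model), 0.68 (set model, edgeR) and 0.12 (set model, DESeq2). H2-Ab1 ranged from −0.54 to 0.39 with 1 library left out. With genotype alone, leaving out 1 library moved Ctsb between −0.31 and 0.22, Ctsd between −0.58 and 0.32, and Ctso between −0.12 and 1.16. At 14 and 18 reads, depth limits what can be said of Ctss in the first set.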
